A study of Mus musculus with 8 samples.

Results

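The skeletal muscle sarcomere transcripts described here are 32 genes of striated muscle, many of them of fast fibres: filament proteins, calcium-handling proteins and energy enzymes. They are 32 of the 26848 genes in the deposited table and were selected on their levels in these same libraries, so their values are a description and carry no test. The RNA came from RAW264.7 cells, a transformed mouse macrophage-like line, grown on PEEK (polyetheretherketone), an implant polymer. One group of 4 libraries came from cells on smooth PEEK and the other 4 from cells on PEEK whose surface was structured at the nano and micro scale; no other treatment, genotype or culture time is given in the labels. All libraries share this 1 cell line, and the sample titles call 3 of the 4 libraries per surface biological replicates and leave 1 unnumbered. The p-values below set the difference between surfaces against the spread between these libraries, part of which may be technical. Separate cultures are not stated, and without them the p-values would be too small.

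The sarcomere is the contractile unit of striated muscle. Thin filaments of actin, tropomyosin and troponin slide along thick filaments of myosin when calcium leaves the sarcoplasmic reticulum through the ryanodine receptor, and a calcium pump returns it. Creatine kinase, glycolytic enzymes and myoglobin keep ATP and oxygen in supply. Macrophages move with related but different proteins, the cytoplasmic actins and non-muscle myosins, and are not known to build sarcomeres.

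Levels are given as CPM, the deposited count units scaled to a common library size of 1e6, and between genes as FPKM, which is also divided by gene length. A sequenced fragment is worth about 4 count units, so 3 fragments (12 units) correspond to 0.166 to 0.186 CPM. As a check of the cell label, 12 macrophage markers had summed levels of 6930 to 7397 CPM. By the rule given next 11 of the 12 were steady, which by itself does not mark a cell type. The other held at most 19 units in any library. A gene was called steady when each of the 8 libraries held at least 12 units and the highest was under 2 times the lowest. It was said to vary together with the others when its highest library was over 12 units and at least 4 times its lowest, with lower counts raised to 12 units, and Pearson's r of its log2(CPM + 0.2) with the mean of the other such genes was at least 0.7.

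By these rules 6 of the 32 genes were steady (Eno3, Tnni2, Myoz1, Ryr1, Myom1 and Cacna1s), 19 varied together and 7 were in between or too low to place. Of the 18077 genes with a library over 12 units, 62.3% were steady, 6.03% had a highest library at least 4 times the lowest, and 0.354% varied with the members by the same rule, the members included. The steady genes had highest-to-lowest ratios of 1.26 to 1.76, and the varying genes 4.02 to 66.6 with r of 0.786 to 0.994 over 8 libraries. Mylpf lay just inside the limit for varying at 4.02 and Ldb3 just outside at 3.61, while Myom1 lay just inside the limit for steady at 1.76 and Neb outside at 2.67. Des had a ratio of 5.66 but an r of 0.572.

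**Figure D1:**
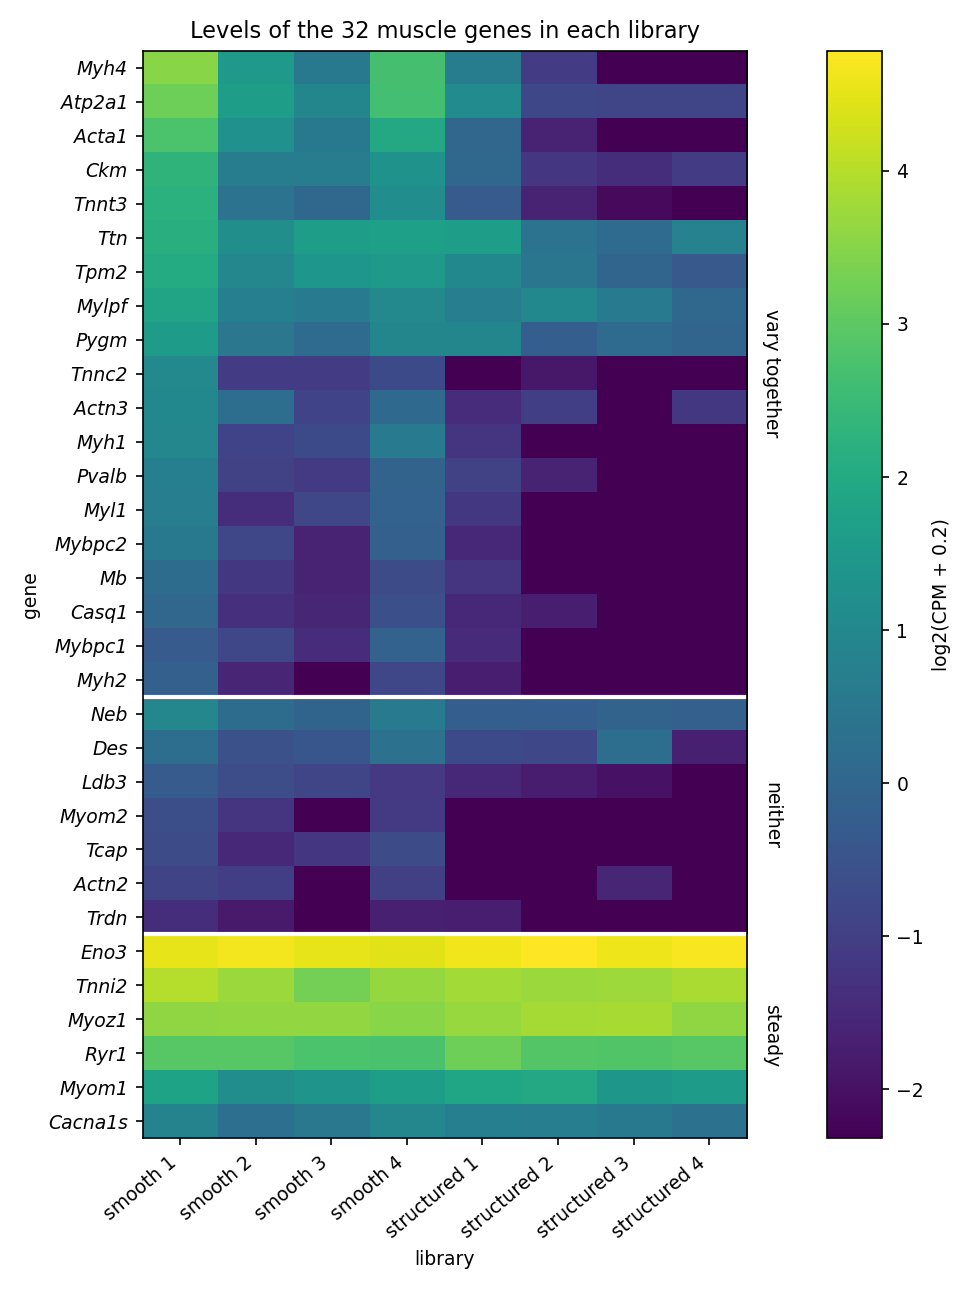
Levels of the 32 genes (rows, grouped by class) in the 8 libraries (columns), coloured by log2(CPM + 0.2). For 17 of the 19 varying genes the brightest columns are smooth 1 and smooth 4, and 11 of the 19 are at 0 in both structured 3 and structured 4; the 6 steady genes differ by under 2 times across a row.

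Promoters are shown for a pair of varying and a pair of steady genes, to show which letter patterns bound by muscle factors lie at them. They come from RefSeq on GRCm38.p6 and run from 250 bases before to 50 after the annotated start; 24 of the 32 genes had one. Capitals mark matches on either strand to an E-box (CANNTG, bound by the MyoD family), to the MEF2 consensus and to the CArG box of serum response factor. Acta1 is skeletal alpha-actin, chr8:123894726-123895025, minus strand, and Myh4 the fast IIB myosin heavy chain, chr11:67237562-67237861, plus strand, both varying. Eno3 is muscle enolase, chr11:70656926-70657225, plus strand, and Ryr1 the ryanodine receptor, chr7:29125102-29125401, minus strand, both steady.
Acta1: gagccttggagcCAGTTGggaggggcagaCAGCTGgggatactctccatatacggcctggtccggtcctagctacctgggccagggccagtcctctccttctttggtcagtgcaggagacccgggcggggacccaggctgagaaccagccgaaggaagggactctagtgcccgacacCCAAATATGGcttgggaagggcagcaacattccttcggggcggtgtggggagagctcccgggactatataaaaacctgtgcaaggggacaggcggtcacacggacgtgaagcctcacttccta
Myh4: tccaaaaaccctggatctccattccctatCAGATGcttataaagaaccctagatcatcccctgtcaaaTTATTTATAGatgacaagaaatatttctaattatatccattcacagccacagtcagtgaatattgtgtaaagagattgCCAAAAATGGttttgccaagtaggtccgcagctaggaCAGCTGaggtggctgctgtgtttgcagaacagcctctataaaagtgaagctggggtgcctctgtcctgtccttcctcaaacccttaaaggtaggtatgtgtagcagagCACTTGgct
Eno3: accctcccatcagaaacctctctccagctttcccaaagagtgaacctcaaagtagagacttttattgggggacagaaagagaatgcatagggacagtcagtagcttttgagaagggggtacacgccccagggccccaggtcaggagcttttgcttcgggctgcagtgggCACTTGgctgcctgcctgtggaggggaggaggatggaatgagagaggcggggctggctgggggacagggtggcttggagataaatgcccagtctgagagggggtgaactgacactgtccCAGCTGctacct
Ryr1: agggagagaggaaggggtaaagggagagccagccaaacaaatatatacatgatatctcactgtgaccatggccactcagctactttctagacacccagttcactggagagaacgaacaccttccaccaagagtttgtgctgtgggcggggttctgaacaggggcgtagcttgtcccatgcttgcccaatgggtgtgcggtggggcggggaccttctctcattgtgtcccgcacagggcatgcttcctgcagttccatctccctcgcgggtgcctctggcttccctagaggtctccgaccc
Acta1 held 2 E-boxes, 1 CArG box and, uncapitalised, 1 TATA box (TATAAA, sense strand); Myh4 held 3 E-boxes, 1 MEF2 match, 1 CArG box and 2 TATA boxes. The RefSeq start of Myh4 lies 217 bases from the start deposited for the gene. Eno3 held 2 E-boxes and no match to the other motifs, and Ryr1 held no match to any of the 4. Counting for each gene the 1 window nearest its deposited start, an E-box was in the promoters of 14 of the 17 varying genes with a window and 3 of the 4 steady ones, against 72.3% of all 32851 promoters. MEF2 matches were in 4 of the 17 and 0 of the 4 (3.19% of all), CArG boxes in 2 and 1 (1.63%), and TATA boxes in 4 and 0 (8.32%). The 2 varying genes with a CArG box are the 2 shown, and the steady gene with 1, Myom1, is not shown. The pattern of the macrophage factor PU.1 (GAGGAA, either strand, uncapitalised) was in 10 of the 17 and 1 of the 4 (28.3% of all). A match is a letter pattern and not a shown binding site, and 4 steady genes are too few to compare the classes.

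Of the thin filament, Acta1, its actin, was at 6.58, 2.23, 1.27 and 3.71 CPM in smooth 1 to 4 and at 0.822, 0.118, 0 and 0 CPM in structured 1 to 4. All 4 smooth libraries stood above all 4 structured ones, and within each surface the libraries differed several-fold. Smooth 1 was at least 38.6 times the floor of 3 fragments that stands in for the 2 libraries at 0. Tnnt3, the troponin subunit that anchors the complex to tropomyosin, followed the same order with 4.46, 1.10, 0.853 and 2.02 CPM on smooth PEEK and 0.620, 0.118, 0.0284 and 0 CPM in the structured libraries. It had the highest r of all members with the rest, 0.994. Tnnc2, the calcium-binding subunit, reached 1.83 CPM in smooth 1, lay between 0.279 and 0.402 CPM in the other smooth libraries, and was at 0 in 3 structured libraries and 0.0738 CPM in structured 2. Smooth 1 alone was thus far from its group for Tnnc2.

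Tnni2, the inhibitory subunit of the same fast troponin complex, behaved otherwise. It was at 15.7, 13.1, 9.72 and 12.4 CPM in the smooth and 13.7, 12.9, 13.3 and 14.6 CPM in the structured libraries, and the groups overlapped (12.7 ± 2.47 and 13.6 ± 0.733 CPM, SD, n = 4). Per length, Tnni2 averaged 8.24 FPKM over the 8 libraries, above Tnnt3 at 0.675 and Tnnc2 at 0.416 FPKM, so the 3 subunits of 1 complex were neither level with each other nor moving together. Tpm2, beta-tropomyosin, varied more gently, from 3.90 CPM in smooth 1 to 0.589 CPM in structured 4, with every library above the floor. The groups overlapped for Tpm2, since structured 1 at 1.80 CPM passed smooth 2 at 1.77 CPM. Neb, the giant protein that spans the thin filament, was between the classes with 0.775 to 1.77 CPM in the smooth libraries, then 0.664 to 0.753 CPM in the structured libraries.

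Of the thick filament, Myh4 had the widest range of all 32 genes. It was at 11.3, 2.70, 1.27 and 6.20 CPM in smooth 1 to 4 and 1.41, 0.280, 0 and 0 CPM in structured 1 to 4, which is a ratio of at least 66.6. Structured 1 lay above smooth 3, so the groups overlapped. Myh1, the fast IIX chain, was at 1.77, 0.339, 0.403 and 1.32 CPM and then 0.231, 0, 0 and 0 CPM, and Myh2, the fast IIA chain, exceeded 3 fragments only in smooth 1 (0.706 CPM) and smooth 4 (0.374 CPM). Among the fragments of Myh1, Myh2, Myh4 and the slow chain Myh7, Myh4 made up 80.1% in smooth 1 (189 of 236, 95% exact Clopper-Pearson interval 74.4 to 85.0%), 73.8% in smooth 2 (61.5 to 84.0%), 66.7% in smooth 3 (47.2 to 82.7%), 73.7% in smooth 4 (65.9 to 80.5%) and 72.7% in structured 1 (54.5 to 86.7%). These Myh4 intervals, which cover counting error only, overlap. Myh7 was 2.5% of the fragments in smooth 1 (6 of 236, 0.9 to 5.5%) and 12.3% in smooth 2 (8 of 65, 5.5 to 22.8%), and a difference in the mix of chains between libraries was not tested. In the other structured libraries the 4 chains together gave 6, 2 and 1 fragments.

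The 2 fast light chains differed from each other. Myl1, an essential light chain, was at 1.44, 0.184, 0.372 and 0.735 CPM on smooth PEEK and at 0.245, 0, 0 and 0 CPM in the structured libraries. Mylpf, the fast regulatory light chain, was at 3.36, 1.47, 1.33 and 1.82 CPM and then 1.46, 1.79, 1.31 and 0.838 CPM, so it was still at 1.31 and 0.838 CPM in the 2 libraries where Acta1 and Myh4 were at 0. Mylpf was thus 12.3% of the summed FPKM of the 19 varying genes in smooth 1 and 62.2% in structured 3, and Acta1 was 16.8% and 0% of them.

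The myosin binding proteins, which stripe the thick filament, were low and graded. Mybpc1 peaked in smooth 4 at 0.735 CPM, the one varying gene not highest in smooth 1, and Mybpc2 peaked in smooth 1 at 1.28 CPM; both were at 0 in structured 2, 3 and 4. Ttn, titin, the elastic filament that spans the sarcomere from its edge to its centre, was present in all libraries at 2.08 to 4.25 CPM in the smooth libraries, then 0.924 to 2.90 CPM in the structured libraries. At the M-line, where thick filaments are cross-linked, Myom1 was steady at 2.09 to 3.69 CPM with its highest value in structured 2, whereas Myom2 was at 0.451, 0.226, 0 and 0.263 CPM on smooth PEEK and 0 in all 4 structured libraries.

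The Z-disc, which anchors thin filaments, split in the same way. Actn3, the fast-fibre alpha-actinin, was at 1.79, 0.975, 0.341 and 0.887 CPM in the smooth libraries, then 0.173, 0.295, 0 and 0.248 CPM in the structured libraries, with no overlap of the groups. Myoz1, a calcineurin-binding Z-disc protein, was steady at 11.3 to 12.3 CPM in the smooth libraries, then 11.9 to 14.4 CPM in the structured libraries. Tcap, the titin cap, was at 0.420, 0.155, 0.233 and 0.416 CPM on smooth PEEK and at 0 in every structured library, but its highest library was only 2.48 times the floor. Actn2 reached 0.345 CPM at most. Ldb3, a PDZ-LIM protein, was higher in all smooth (0.249 to 0.616 CPM) than in all structured libraries (0 to 0.144 CPM). Des, the muscle intermediate filament, had 0.981 CPM in structured 3, where most varying genes were at 0, and this sets it apart from them.

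Among the calcium-handling genes, Atp2a1, the fast-muscle calcium pump, was at 9.12, 2.97, 1.74 and 6.07 CPM on smooth PEEK and 1.95, 0.384, 0.355 and 0.357 CPM in the structured libraries. Structured 1 stood apart from the other 3 structured libraries and passed smooth 3. Pvalb, a soluble calcium buffer of fast fibres, ran from 1.47 CPM in smooth 1 to 0 in structured 3 and 4, and Casq1, which stores calcium in the reticulum, from 0.811 CPM to 0 in the same libraries. Trdn, triadin, which links calsequestrin to the release channel, reached no more than 0.180 CPM and had no library over 12 units.

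The 2 channels of excitation-contraction coupling were steady. Ryr1 was at 7.40, 7.41, 6.65 and 6.54 CPM in the smooth libraries, then 9.17, 7.17, 7.06 and 7.49 CPM in the structured libraries. Cacna1s, the voltage sensor of the muscle membrane, was at 1.62, 1.02, 1.23 and 1.75 CPM and then 1.47, 1.46, 1.26 and 1.05 CPM. Their r with the varying genes was -0.11 and 0.55, while the pump's highest library was 25.6 times its lowest.

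Of the energy genes, Ckm, muscle creatine kinase, was at 4.70, 1.43, 1.41 and 2.27 CPM on smooth PEEK and 0.851, 0.236, 0.185 and 0.279 CPM in the structured libraries, without overlap and without a library at 0. Mb, myoglobin, was at 0.946 CPM in smooth 1 and 0 in structured 2, 3 and 4. Pygm, muscle glycogen phosphorylase, stayed above the floor everywhere, at 2.82 CPM in smooth 1 and 0.664 CPM in structured 2. Eno3 was the most abundant of the 32 genes per length, 13.1 FPKM on average, and the steadiest, at 21.7 to 25.3 CPM in the smooth libraries, then 23.9 to 27.4 CPM in the structured libraries.

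Summed over the 19 varying genes, the libraries held 63.2, 20.4, 16.4 and 36.3 CPM on smooth PEEK (34.1 ± 21.3, SD, n = 4) and 15.3, 6.46, 4.52 and 4.67 CPM in the structured libraries (7.73 ± 5.11, SD, n = 4). The lowest smooth and the highest structured library are close, 16.4 and 15.3 CPM, and the libraries within a surface are further apart than that. The 6 steady genes summed to 62.9, 61.2, 54.8 and 56.7 CPM in the smooth libraries, then 65.0, 66.6, 62.4 and 64.0 CPM in the structured libraries, 1.21 times between the extremes. Smooth 1 was the highest library for 18 of the 19 varying genes, and for 17 smooth 1 and smooth 4 were the top 2. In all, 13 of the 19 were at 0 somewhere, 12 of the 19 in structured 3 and 12 in structured 4. In structured 2 it was 6, in structured 1 and in smooth 3 it was 1 each, and in smooth 1, 2 and 4 it was 0. Ckm, Mylpf, Atp2a1, Ttn, Tpm2 and Pygm were the 6 that were never at 0. Without smooth 1, 12 of the 19 met the rule for varying, and without smooth 1 and smooth 4, 6 did: Acta1, Ckm, Myh4, Tnnt3, Atp2a1 and Tpm2.

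**Figure D2:**
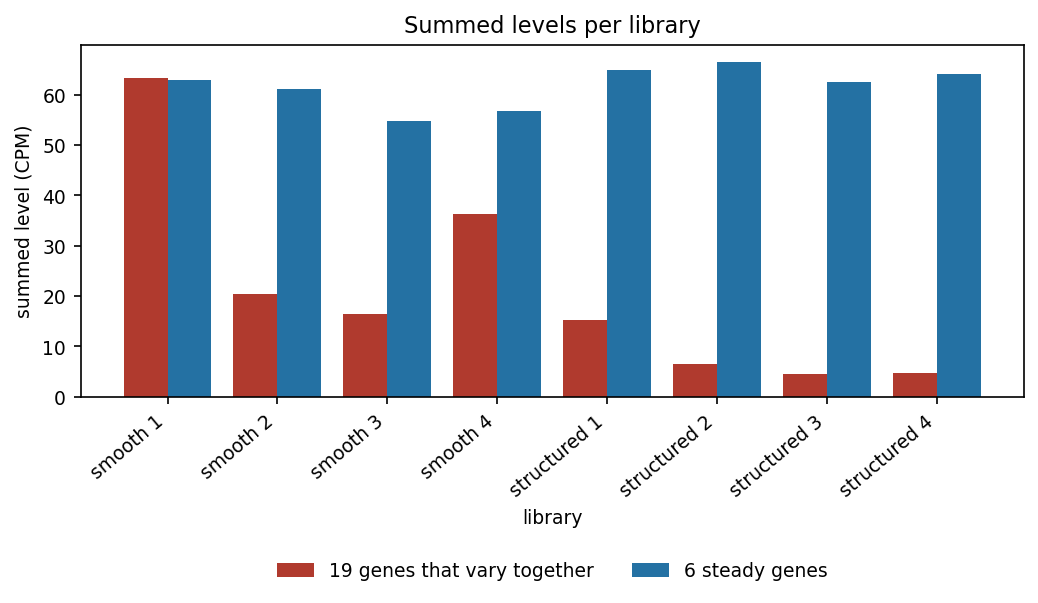
Summed level in CPM (vertical axis, from 0) of the 19 varying and the 6 steady genes in each library. The varying sum falls from 63.2 CPM in smooth 1 to 4.52 CPM in structured 3, and the steady sum stays between 54.8 and 66.6 CPM.

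Between surfaces, 26 of the 32 genes had counts enough for edgeR's quasi-likelihood fit over 16006 genes, and 6 (Myh2, Actn2, Casq1, Mybpc2, Myom2 and Trdn) had not. The fit called 601 genes, 3.75% of those tested, and 2.75% of them as lower on structured PEEK. It called 4 members lower (Ckm, Tnnc2, Tcap and Atp2a1) and none higher; since the members were picked from these levels nothing is read from that count, which was 13 without structured 1 and 0 without smooth 4, structured 2 or structured 4; DESeq2 gave an adjusted p for only 4 members and called 0 of them. The median log2 difference, structured minus smooth, was -2.78 for the 16 varying genes that were fitted, 0.14 for the 6 steady ones and 0.01 for all genes. Every smooth library was above every structured one for 10 of the 31 members with a library over 12 units, 7 of them varying, against 6.42% of all such genes. In bulk RNA, fewer cells of a type and less RNA per cell cannot be told apart.

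Some muscle genes outside the 32 shared the pattern and others did not. Of 63 other striated-muscle genes 55 were in the table and 35 had a library over 12 units; 9 were steady and 2 varied with the members, where 0.354% of all such genes did. The 4 most abundant per length were steady: Hspb7 and Hspb6, small heat shock proteins, Tpm1, alpha-tropomyosin, and Klhl41, a sarcomere-associated Kelch protein, with ratios of 1.27, 1.38, 1.15 and 1.38. Among those that varied, Cryab, a chaperone of desmin, was named after its values were seen (r 0.740); without smooth 1 none of the list met the rule, and without smooth 4 only 1 gene did. The 46 that were not steady summed to 16.2, 11.5, 12.3 and 15.3 CPM in the smooth libraries, then 10.01, 7.60, 9.92 and 9.87 CPM in the structured libraries. Those sums do not overlap between surfaces, but the 46 were kept by their values in these same libraries. All 55 summed to 402.9 to 419.7 CPM in the smooth libraries, then 368.0 to 406.1 CPM in the structured libraries, which do overlap. In 5 of the 35 genes every smooth library was above every structured one, against 6.42% of all genes with a library over 12 units: Xirp2 (r 0.972), Mylk4 (r 0.908), Cmya5 (r 0.878), Hrc (r 0.728) and Myot (r 0.648), named after their values were seen, whose highest libraries were 1.94 to 2.44 times the lowest or the floor and thus under the limit for varying. Of the 26 that were fitted, edgeR called 0, with 3 lower at an unadjusted p under 0.05, and DESeq2 called 0 of the 6 to which it gave an adjusted p.

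Of the slow-fibre and cardiac genes 17 of 19 were in the table, none varied with the members, and edgeR called 0 of 9, with 1 lower at an unadjusted p under 0.05; DESeq2 gave none of them an adjusted p. Tnnt1 and Myh7b, a slow troponin and a myosin heavy chain, were steady, and Fabp3, a fatty acid carrier, and Tnnc1, slow troponin C, had ratios of 2.82 and 3.14. Myh7 held 13 to 39 units on smooth and 4 to 12 units on structured PEEK. Its r with the varying genes was 0.825, but its ratio of 3.17 was under the limit for varying. Its log2 difference was -1.91 (edgeR adjusted p = 0.0904). Of the 11 genes of this list with a library over 12 units, it was the only 1 with every smooth library above every structured one, against 6.42% of all such genes.

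Of 15 regulators of the muscle program 11 were in the table. Mef2d and Mef2a, MADS-box factors that macrophages also express, fell by 0.19 and 0.20 on the log2 scale on structured PEEK (edgeR adjusted p = 0.0271 and 0.0285), and Mef2c and Srf, the factor that binds CArG boxes, were not called. The calls of Mef2d and Mef2a were lost in 8 and 9 of 15 other settings, among them leaving out smooth 2, 3 or 4 or structured 2 or 4, with adjusted p up to 0.173 and 0.106. Myog, Myf6 and Cdh15, which mark committed muscle cells, held at most 4 units, or 1 fragment, in any library. The defining regulators of muscle were thus near 0 in all 8 libraries.

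Markers of other tissues differed in which libraries were high. The 16 hepatocyte genes summed to 355, 102, 95.5 and 70.6 CPM in the smooth libraries, then 142, 135, 280 and 481 CPM in the structured libraries, so smooth 1 was high for liver as for muscle genes but structured 4 was higher still, where the varying muscle genes summed to 4.67 CPM. The 6 adipocyte genes that were not steady summed to 4.62 to 6.31 CPM on smooth PEEK, 6.97 and 4.80 CPM in structured 1 and 2, and 0.171 and 0.341 CPM in structured 3 and 4. Fabp4 and Lipe, the most abundant per length of that list, were steady and left out. The 6 were thus kept by their values in these same libraries. All 8 summed to 81.02 to 85.97 CPM in the smooth libraries, then 84.05, 88.66, 60.7 and 61.85 CPM in structured 1 to 4. Adipoq, Plin1 and Cfd, an adipokine, a lipid-droplet coat protein and adipsin, were at 0 in both structured 3 and structured 4, as were 11 of the 19 varying muscle genes. By the members' own rule 3 of the 7 adipocyte genes with a library over 12 units varied with the members, Adipoq (r 0.717), Plin1 (r 0.736) and Plin4 (r 0.724), the last another lipid-droplet coat protein. In sum, however, adipocyte genes did not separate smooth 1 and 4 from smooth 2 and 3. The 10 neutrophil genes that were not steady ran the other way in sum, 0.438 to 1.92 CPM in the smooth libraries, then 14.8 to 54.0 CPM in the structured libraries. Mmp9, the most abundant per length of that list, was steady and left out of the sum. It was at 53.29 to 63.99 CPM in the smooth libraries, then 48.95 to 54.08 CPM in the structured libraries. Smooth-muscle and fibroblast genes summed to 5.42 to 7.62 CPM in the smooth libraries, then 4.33 to 7.80 CPM in the structured libraries, 1.80 times between the extremes. The part of other cells in the muscle levels was not tested.

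**Figure D3:**
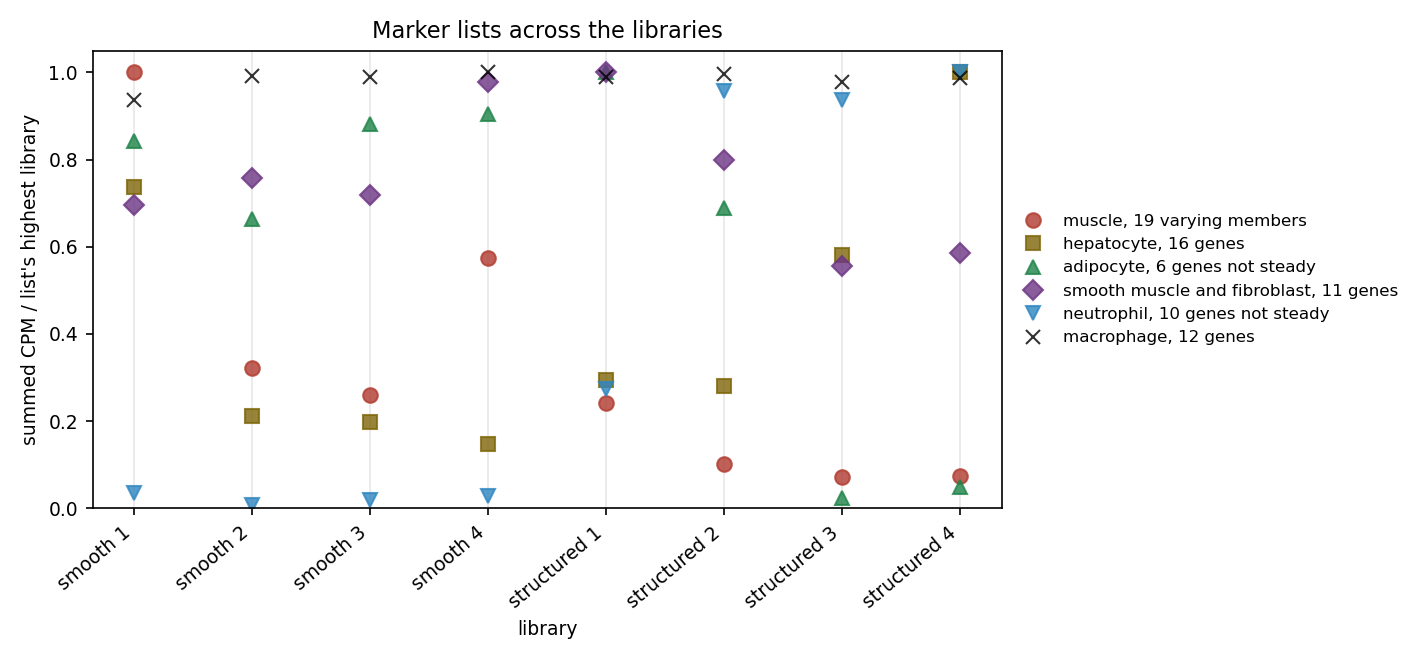
Summed CPM of the varying muscle genes and of 5 marker lists in each library, each divided by that list's highest library (vertical axis, from 0), 1 point per list and library. The adipocyte and neutrophil points are of the 6 and 10 genes of those lists that were not steady, and the other marker lists are whole. The muscle points peak in smooth 1 (63.2 CPM), the hepatocyte points in structured 4 (481 CPM), and the macrophage points stay level (6930 to 7397 CPM).

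By the rule for varying, 45 non-members also varied with the members. Of 658 non-members with a highest library of at least 1 CPM and 4 times the lowest, Car3 (r 0.896) and Slc2a4 (r 0.879) were most alike over the 8 libraries. Car3, a carbonic anhydrase abundant in muscle and fat, was at 10.3, 7.08, 6.75 and 6.79 CPM in the smooth libraries, then 7.23, 3.75, 1.86 and 2.61 CPM in the structured libraries. Slc2a4, the insulin-responsive glucose transporter, was at 0.749 to 1.08 CPM in the smooth libraries, then 0.128 to 0.692 CPM in the structured libraries. Pdk4, a kinase that restrains glucose oxidation, had r 0.784 but was flat from smooth 1 to structured 1 (2.18 to 2.37 CPM) and near 0 only in structured 3 and 4. The other 7 of the 10 most alike were Dbndd1 and the gene models Gm38190, Gm37121, 6530409C15Rik, Gm43442, 4933431C10Rik and Gm49883, with r of 0.783 to 0.873. Their points share libraries and depth, so r is given as a description.

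The genes that do the same work in non-muscle cells are not members, so their levels were not what the members were selected on, and they were tested; the list itself was drawn up with earlier results of these data known. Partners for 13 pairs were picked from the list, and in each pair the non-muscle gene stood above its muscle relative in every library. The ratios per length ran from 29.1 for Eno1 over Eno3 to 4520 for Calr over Casq1. Not every listed gene would have stood above. Myh10, a further non-muscle myosin, averaged 0.0589 FPKM, under Myh4, and Pygl averaged 0.298 FPKM against 0.388 FPKM for Pygm. Actb averaged 1330 FPKM against 1.13 FPKM for Acta1, and Myh9 49.3 FPKM against 0.453 FPKM for Myh4. Atp2a2, the housekeeping calcium pump, was at 104 to 117 FPKM while Atp2a1 ran from 0.0944 to 2.50 FPKM. Of the 26 counterparts 25 were steady.

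Of the 26, 6 fell on structured PEEK and none rose (edgeR quasi-likelihood test, Benjamini-Hochberg over 16006 genes), against 2.75% of all genes lower. That share is over all tested genes and is not matched to the counterparts in abundance. At an unadjusted p under 0.05, 8 were lower and 3 higher, and DESeq2 called 8 lower and 2 higher. The differences were small. Itpr3, an inositol trisphosphate receptor that releases calcium as Ryr1 does in muscle, was at 21.7, 22.9, 22.6 and 22.7 FPKM on smooth and 18.1, 18.3, 19.4 and 18.2 FPKM on structured PEEK, with no overlap. It fell by 0.29 ± 0.04 (SE) on the log2 scale (edgeR adjusted p = 0.00689), and its relative Itpr2 by 0.22 ± 0.04 (adjusted p = 0.0203). Actn1, a non-muscle alpha-actinin, fell by 0.26 ± 0.05 (adjusted p = 0.0170) and Pdlim7, a PDZ-LIM protein of actin bundles, by 0.33 ± 0.07 (adjusted p = 0.0268). Tpm3, a tropomyosin, fell by 0.20 ± 0.04 (adjusted p = 0.0194) and Actg1, cytoplasmic gamma-actin, by 0.19 ± 0.04 (adjusted p = 0.0294). Actb had a log2 difference of -0.17 (adjusted p = 0.0523) and Myh9 one of -0.16 (adjusted p = 0.0541), and neither passed. Itpr3 was called in all 15 other settings and the other 5 were each lost in 4 to 8 of them; 2 counterparts were called without smooth 2, smooth 3 or structured 2, and 1 without structured 4.

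**Figure D4:**
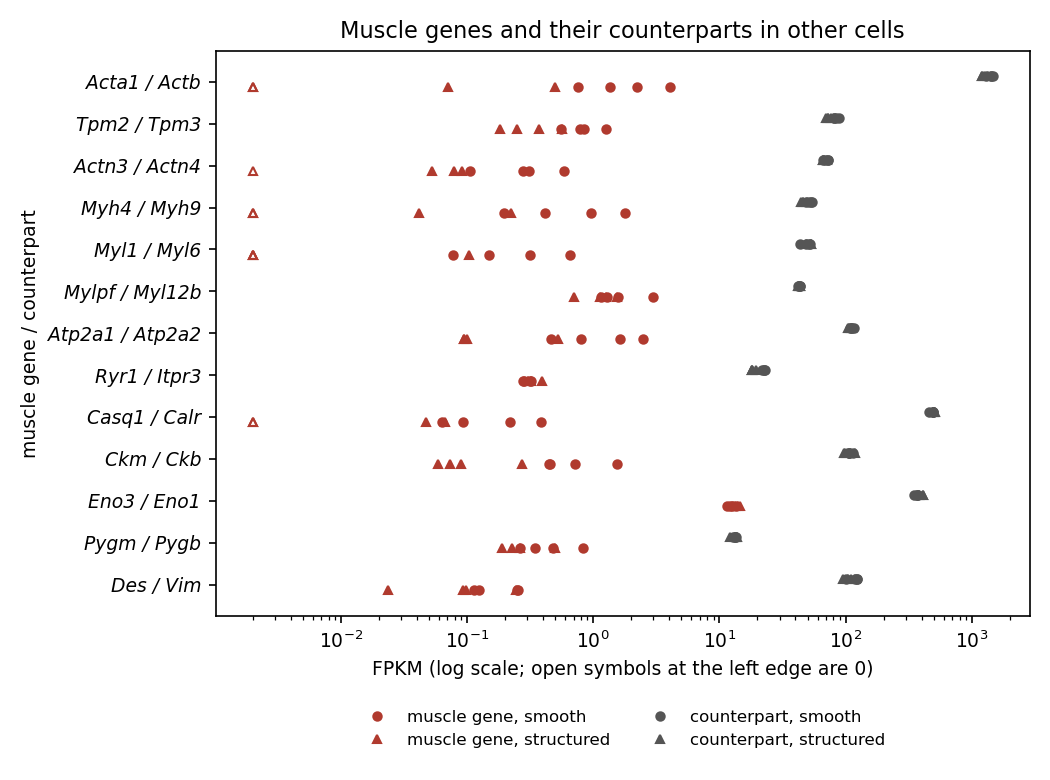
FPKM (horizontal log axis, open symbols at the left edge are 0) of 13 muscle genes and their non-muscle counterparts, 1 point per library (circles smooth, triangles structured). Every counterpart shown, picked from a longer list, lies above its muscle gene. The counterparts' points are tight (Actb 1210 to 1470 FPKM) where those of Acta1 spread from 0 to 4.08 FPKM.

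Position and shared sequence bear on what some counts hold. The libraries were strand-marked with dUTP, but the strand setting of the authors' counting is not given. How reads over genes on opposite strands were assigned is therefore not known. Tnnc2 shares 592 of its 800 exon bases (74.0%) with Ube2c, a cell-cycle gene on the opposite strand at 70.5 FPKM. Tnnc2 was yet at 0 in 3 structured libraries, so no reads of Ube2c were counted for it there. For the other overlaps this was not tested. Of the steady genes, Myom1 shares 2.0% of its exon bases with Myl12a (27.6 FPKM) and Cacna1s 20.0% with Gm37759 (0.0566 FPKM), both on the opposite strand, and Ryr1 ends 66 bases from Map4k1 (12.3 FPKM). Atp2a1 shares 21.9% with Rabep2 (2.59 FPKM). Tnni2 and Tnnt3 lie on chromosome 7 on either side of Lsp1 (2.06 FPKM), a leukocyte actin-binding protein gene, at 16399 and 3969 bases from it, and the one was steady and the other varied. Windows of 150 bases shared with another gene made up 2.49% of Myh1, 2.06% of Myh2, 0.51% of Myh4 and 1.93% of Myl1, and none of the other 28 members.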

How the data were processed

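RNA-seq of 8 libraries (4 smooth, 4 structured PEEK) was analysed from 1 table. Per the labels' protocols, oligo(dT)-selected RNA was sequenced after dUTP marking of the second strand. Per the submitters' processing notes, cutadapt 1.9 and HISAT2 2.2.1 were used; counter, build and annotation: not given in the sources used here. For each gene the authors deposited, per the file headers, 8 estimated count columns, whole numbers not scaled to depth, and 8 FPKM columns, scaled by them to gene length and depth. Multiples of 4 made up 32.1% of the values between 1 and 40 but 25.3% of those between 400 and 4000, so a fragment was taken as about 4 units. Library totals were 64479829 to 73098735 units, which is no plain fragment depth.

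Counts as deposited were filtered (filterByExpr, minimum count 10), TMM-scaled and fitted with edgeR 4.0.16 in R 4.3.3 (glmQLFit, Benjamini-Hochberg at 0.05, no covariates), with DESeq2 1.42.0 as an alternative. Gene positions were matched to GENCODE M21, where 26 of the 32 members had the deposited start and end. Alternatives covered the filter, scaling, tool, counts divided by 4, replicate block, class limits, FPKM and left-out libraries. All members are named; from other lists up to 4 genes of highest mean FPKM, all called counterparts, and the 10 most alike non-members. The members, lists and class limits were chosen with earlier results of these data known. Also named from the lists, outside this rule, are Myh7, Myog, Myf6, Cdh15, Plin1, Plin4, Myh9, Myh10, Atp2a2 and Pygl. Other exceptions are said where they occur. A gene of the other striated-muscle list is not reported here.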

Additional observations from a re-analysis of the deposited data

Results flagged for a closer look

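Within a surface, 1 of the 4 libraries lay far from the other 3 in 8 of the 57 member-and-surface groups examined (gap to the nearest library over the whole range above Dixon's 95% critical value). In unselected values chance passes that limit in about 1 in 20 groups, but these genes were chosen on their levels in these libraries, so the count is a description and no test. In the structured group the library apart was structured 1, higher than the rest, for Acta1 (0.856), Ckm (0.858), Myh1 (1.0), Myl1 (1.0), Atp2a1 (0.982) and Mb (1.0). In the smooth group it was smooth 1, higher, for Tnnc2 (0.921) and smooth 3, at 0, for Actn2 (0.859). The groups share libraries, so they are not independent of each other. In Myh1, Myl1 and Mb the other 3 structured libraries were all at 0, which fixes the value at 1.0.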

How the results depend on the processing

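The 19 varying genes ranged from 12 to 19 when 1 library was left out and were 6 without smooth 1 and smooth 4, an alternative added after seeing the data; fewer libraries then carry the high values. The 6 steady genes became 3 under fold limits of 1.5 and 3, which dropped Tnni2, Myom1 and Cacna1s; scaling, FPKM, the floor and the limit on r left both counts within 1.5 times. The 2 other striated-muscle genes that varied ranged from 0 to 2 with 1 library left out and were 0 without smooth 1 and smooth 4. Genes called (601) numbered 189 with no filter on low counts, 88 to 597 with 1 library left out, 52 without smooth 1 and smooth 4, 77 without structured 3 and structured 4, and 1375 by DESeq2, of which 528 were higher and 847 lower, against 161 and 440; the cause was not tested. Counterparts called (6) numbered 3 with no filter, 10 by DESeq2, 1 to 8 with 1 library left out, 2 without smooth 1 and smooth 4 and 1 without structured 3 and structured 4.

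With the library number as a replicate block, 499 genes, 7 members and 7 counterparts were called. Same-numbered libraries correlated at -0.192 to 0.112 and 1 library correlated best with its own number, so the numbers were not taken as pairs. At the low counts of most varying genes, 1 fragment more or less moves a level.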
